A study of Mus musculus with 15 samples.

Results

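Myeloid priming genes are genes of granule-forming and monocytic cells that blood stem cells already transcribe at low level. The 10 genes described here were chosen by name: the granule protein genes Mpo, Elane, Prtn3 and Ctsg, the growth factor receptor genes Csf3r and Csf1r, and the transcription factor genes Cebpa, Spi1, Irf8 and Gfi1. All 10 were among the 20696 genes of the deposited expression table, and 7 of them were among the 11345 genes whose mean reached 1 FPKM (fragments per kilobase of gene, scaled to the size of the library), the level needed to enter the test. Cebpa (mean 0.951 FPKM), Ctsg (0.555) and Csf1r (0.158) fell short of that level, with Cebpa just below it and Elane (1.079) and Irf8 (1.185) just above it.

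RNA was sequenced from hematopoietic stem cells (HSCs), the cells that renew all blood lineages, sorted by flow cytometry from mouse bone marrow. The 15 libraries formed 3 groups of 5: mice of 18 months labelled aged Thbs1 knockout, control mice of 18 months, and control mice of 3 months. Thbs1 encodes thrombospondin 1, a secreted matrix protein. The sources used here do not give the strain, the knockout allele or the sorting markers. The labels also leave unsaid whether each sample is a different mouse; p-values therefore describe sample-to-sample spread, some of it possibly technical.

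Neutrophil and monocyte production is set up by a small circuit. PU.1 (encoded by Spi1) opens myeloid genes, C/EBP-alpha (Cebpa) commits progenitors to the granulocyte and monocyte branch, and Irf8 and Gfi1 then favour monocytes and neutrophils. The circuit drives the receptors for the growth factors G-CSF (Csf3r) and M-CSF (Csf1r), and, in promyelocytes, the primary granule proteins: myeloperoxidase (Mpo), which makes hypochlorous acid, and the serine proteases neutrophil elastase (Elane), proteinase 3 (Prtn3) and cathepsin G (Ctsg).

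RefSeq start-site windows (GRCm38.p6) of 300 bases, from 250 before to 50 after the start, were matched for 8 of the 10 genes, with 10 windows in all; none was matched for Spi1 or Csf1r. The windows of Prtn3 (chr10:79879417-79879716, plus strand), its neighbour Elane (chr10:79886062-79886361, plus strand) and Csf3r (chr4:126024409-126024708, plus strand) are shown because Prtn3 and Csf3r are the members whose level differed between groups and Elane is the granule gene beside Prtn3. Capitals mark the letters GAGGAA, the core that PU.1 recognises, searched on both strands.

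Prtn3: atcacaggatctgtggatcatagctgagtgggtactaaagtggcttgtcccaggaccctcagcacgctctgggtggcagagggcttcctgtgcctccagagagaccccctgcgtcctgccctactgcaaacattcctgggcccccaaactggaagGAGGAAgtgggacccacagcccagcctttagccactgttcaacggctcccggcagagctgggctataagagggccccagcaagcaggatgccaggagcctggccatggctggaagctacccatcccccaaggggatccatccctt

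Elane: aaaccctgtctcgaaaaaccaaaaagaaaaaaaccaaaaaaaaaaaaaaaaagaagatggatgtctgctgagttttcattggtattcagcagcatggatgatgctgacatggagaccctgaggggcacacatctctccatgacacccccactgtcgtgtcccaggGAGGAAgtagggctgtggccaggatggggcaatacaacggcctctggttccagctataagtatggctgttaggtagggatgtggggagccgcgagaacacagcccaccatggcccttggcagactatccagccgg

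Csf3r: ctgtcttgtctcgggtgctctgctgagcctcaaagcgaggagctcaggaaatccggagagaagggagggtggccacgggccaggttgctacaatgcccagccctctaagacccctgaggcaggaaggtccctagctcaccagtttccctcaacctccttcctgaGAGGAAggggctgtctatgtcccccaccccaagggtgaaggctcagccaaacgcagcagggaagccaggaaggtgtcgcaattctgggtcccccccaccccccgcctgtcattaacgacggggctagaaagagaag

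The GAGGAA letters began 95 bases before the start in Prtn3, 85 before it in Elane and 86 before it in Csf3r. They were also found in the windows of Mpo and Ctsg, so that the 5 genes with the letters were the 4 granule genes and Csf3r, while the 3 transcription factor genes with a window (Cebpa, Irf8 and Gfi1) had none. Of all 32851 windows of this kind, 28.3% held the letters. The C/EBP letters TTNNGNAA, held by 40.7% of windows, were found in 1 member, Gfi1, and the RUNX letters TGTGGT, held by 16.8%, in 1 member, Ctsg.

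The libraries held 16.65e6 to 28.63e6 reads in genes, recovered from the steps of the FPKM values. HSC marker genes were present: 14 of 14 listed, among them Hlf, Procr and Kit, reached a mean of 1 FPKM, and they summed to 805 to 1030 FPKM in the knockout-labelled group, 1160 to 1240 in aged and 960 to 1010 in young controls. Thbs1 itself was no lower under the knockout label. It had 2.53, 1.69, 17.89, 12.69 and 17.25 FPKM in the knockout-labelled libraries, against 0.20, 0.01, 0.62, 8.75 and 4.90 FPKM in aged controls (log2 difference 1.73, SE 0.713, adjusted p = 0.302, limma), and 0.76, 0.70, 13.38, 2.42 and 3.95 FPKM in young controls. Thbs1 had 2.42 to 17.89 FPKM in female and 0.01 to 2.53 FPKM in male libraries, and the aged controls hold fewer female libraries than the knockout-labelled group. The level of the gene thus does not bear out the label, and the deleted part of the gene is not stated. Knockout-labelled libraries 2 and 5 had ribosomal and similar RNA at 3.603% and 1.657% of reads, against 0.439% to 1.095% in the other libraries. The table names each column by a sample title and by a library name. In 10 of 15 columns the library name belongs, by the sample descriptions, to a different sample, and groups here follow the titles. A letter within the library names followed the title groups in all 15 columns: A in young controls, B in aged controls and C under the knockout label. What the letter stands for is not stated. With the groups read from the descriptions instead, none of the members was called in any comparison and the Prtn3 difference between aged and young controls turned to -0.71 (adjusted p = 0.921).

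**Figure D1:**
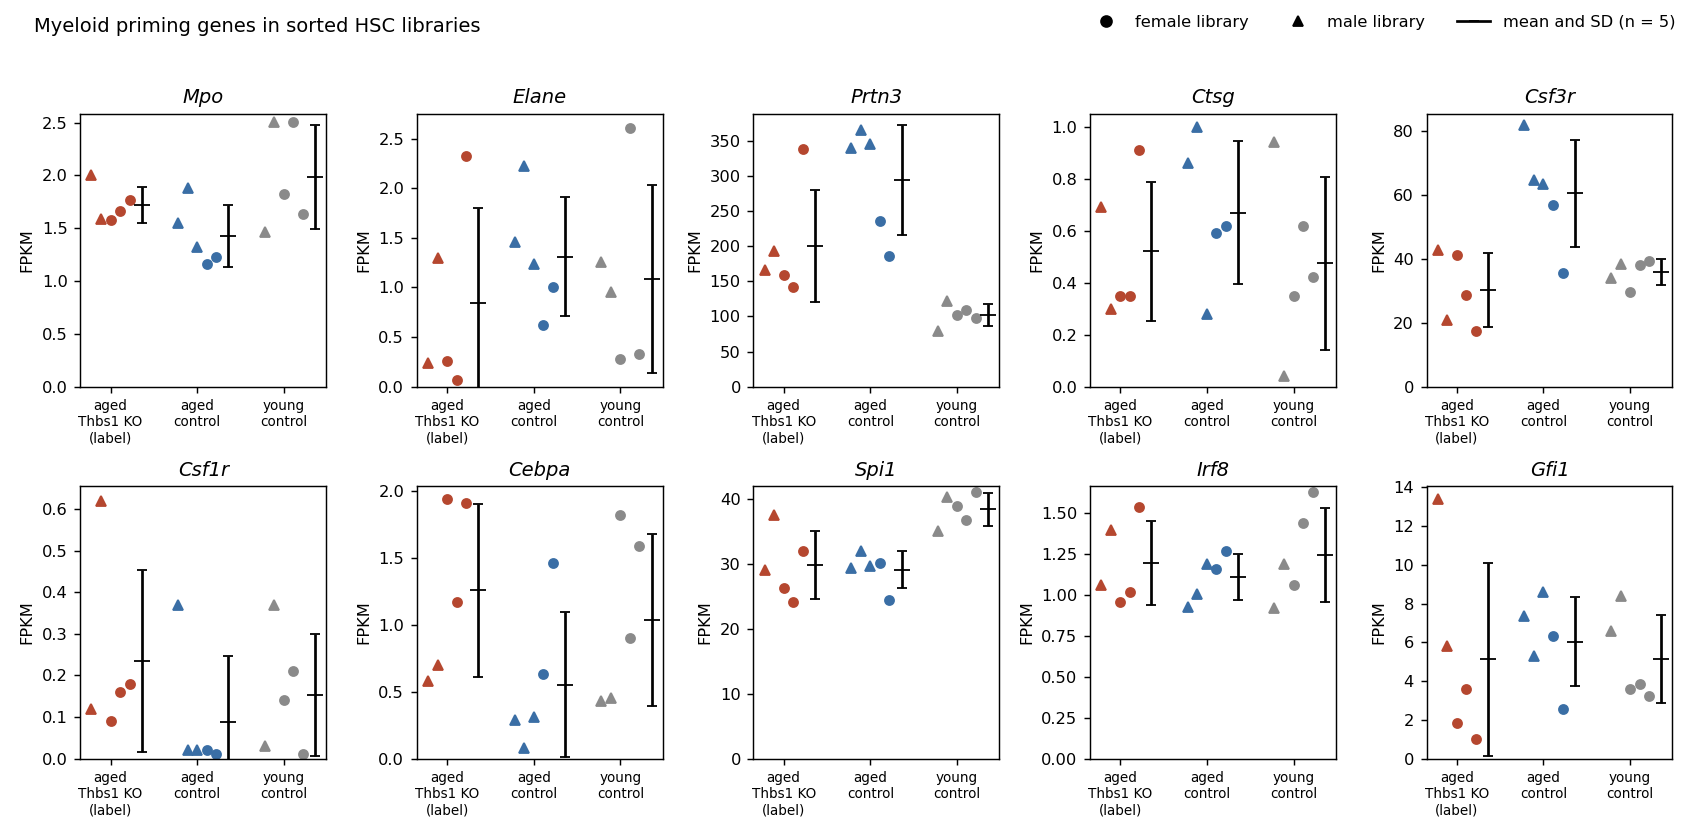
FPKM of each of the 10 genes in every library; points are single libraries and bars the mean and SD of 5 (cut off at 0), with circles for female and triangles for male libraries, and the libraries labelled aged Thbs1 knockout at left, then aged and young controls. Prtn3, Csf3r and Spi1 stand highest, and Prtn3 of all 5 aged controls lies above all 5 young controls.

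The granule proteins were led by Prtn3 alone. Prtn3 (ENSMUSG00000057729, chr10:79874476-79883174) encodes a serine protease of the azurophil granule. It had 166.15, 193.38, 158.97, 142.13 and 339.02 FPKM in the libraries labelled aged Thbs1 knockout, 340.43, 365.19, 345.73, 236.64 and 186.86 FPKM in aged controls, and 78.82, 122.43, 102.24, 108.94 and 97.15 FPKM in young controls. The means were 199.9 ± 79.9, 295 ± 78.5 and 101.9 ± 16.0 FPKM (SD, n = 5 each). All aged controls and all knockout-labelled libraries lay above all young controls, whereas the knockout-labelled and aged ranges overlapped: knockout-labelled replicate 5 stood at the level of the higher aged controls, and aged control 5 at the level of the other knockout-labelled libraries.

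Prtn3 rose in aged against young controls by 1.49 on the log2(FPKM + 1) scale (SE 0.226, adjusted p = 0.000433, limma; exact permutation p = 0.00794, which is the smallest that 5 against 5 libraries allow). It was the 1 member called of 7 tested, when 4.42% of all genes tested were called (3.18% higher and 1.23% lower). The rise held in 18 of the 19 other settings, the exception being the grouping by sample description. Against young controls, the libraries labelled aged Thbs1 knockout were also higher, by 0.91 (SE 0.226, adjusted p = 0.0497, limma; exact p = 0.00794), where 1.63% of all genes tested were called (1.01% higher and 0.617% lower). This call was lost in 16 of 20 other settings, with adjusted p = 0.235 and a difference of 0.62 when the 2 libraries with more ribosomal-like RNA were left out. Against aged controls, the knockout-labelled libraries differed by -0.59 (SE 0.226, adjusted p = 0.254, limma, with exact p = 0.0794), so this difference was not called. It was called in 3 of 20 other settings (limma). With quantile normalization it was -0.64 (adjusted p = 0.0206). Without knockout-labelled replicate 5, the highest of its group, it was -0.80 (adjusted p = 0.0364), and without replicates 2 and 5 it was -0.87 (adjusted p = 0.0395). These comparisons share libraries, so their values are not independent.

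Knockout-labelled replicate 5, the library with the highest Prtn3 of its group, had the highest S100a8 (19.31 FPKM) and S100a9 (20.12 FPKM), calprotectin genes abundant in neutrophils and also made by monocytes. The other 4 measured genes of the mature neutrophil list, Ngp, Ltf, Retnlg and Mmp8, summed to 0.15 FPKM there, the lowest of all 15 libraries, against 0.71 to 2.81 FPKM in the other knockout-labelled libraries. Over all 6 measured of the 8 listed genes, the sum was 39.58 FPKM in that library, against 3.41 to 16.33 FPKM in the other knockout-labelled libraries. These sums over 6 genes had a median of 14.98 FPKM in the knockout-labelled group, of 6.61 FPKM (range 4.51 to 12.4) in aged controls and of 9.98 FPKM (range 6.28 to 17.8) in young controls. The aged controls, with the highest mean Prtn3, had the lowest median of these markers. In bulk samples, fewer cells of a type and less RNA per cell cannot be told apart. The megakaryocyte markers, 6 of 6 measured, summed to 201 to 350, 332 to 2010 and 377 to 488 FPKM in the same order of groups. In aged against young controls 3 of the 6 were called higher and 1 lower (limma), where 3.18% of all genes tested were called higher and 1.23% lower. Between the knockout-labelled libraries and aged controls 3 were called lower, where 1.19% of all genes tested were. The part of either marker list in the myeloid results was not tested.

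The other 3 granule genes stood at 2 FPKM or less on average. Elane (ENSMUSG00000020125, chr10:79886247-79888215), neutrophil elastase, had 0.84 ± 0.965 FPKM in the libraries labelled aged Thbs1 knockout, 1.31 ± 0.601 in aged and 1.09 ± 0.948 in young controls (SD, n = 5 each), from as few as 2 reads in a library. Mpo (ENSMUSG00000009350, chr11:87793581-87804413) had 1.72 ± 0.174, 1.43 ± 0.292 and 1.99 ± 0.495 FPKM in the same groups. Ctsg (ENSMUSG00000040314, chr14:56099881-56102574), with 1 to 26 reads in a library, had 0.52 ± 0.268, 0.67 ± 0.277 and 0.474 ± 0.334 FPKM. Their ranges overlapped in every comparison.

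None of these 3 passed a test in any comparison. The smallest exact p was 0.0635 for Mpo in aged against young controls (log2 difference -0.29), and the limma adjusted p of Mpo and Elane was at least 0.27 in each comparison. Prtn3 made up 98.5% of the summed FPKM of the 4 granule genes in the libraries labelled aged Thbs1 knockout, 98.9% in aged controls and 96.6% in young controls, and its mean FPKM over all libraries was 184 times that of Elane.

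Prtn3 and Elane are neighbours: Prtn3 ends 3.07 kb before Elane begins. Around Prtn3, a window of 100 kb on each side, chosen after the values were seen, held 17 other genes of the table, 11 of them tested. One was called in aged against young controls, Plppr3, a phospholipid phosphatase-related membrane protein, which differed by 0.79 (adjusted p = 0.0387, limma); its gene lies on the opposite strand and overlaps the longest Prtn3 model by 159 bases, and the strand setting of the counting is not given, so shared reads there cannot be told apart. The 11 neighbours ranged from -0.20 to 0.79 in that comparison, against 1.49 for Prtn3. Prss57, another granule serine protease in the window, differed by -0.08 (adjusted p = 0.815, limma). Between the libraries labelled aged Thbs1 knockout and aged controls none of the 11 was called, and the smallest adjusted p was 0.0906, for Plppr3 (limma). Against young controls the smallest was 0.225, for Ptbp1.

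**Figure D2:**
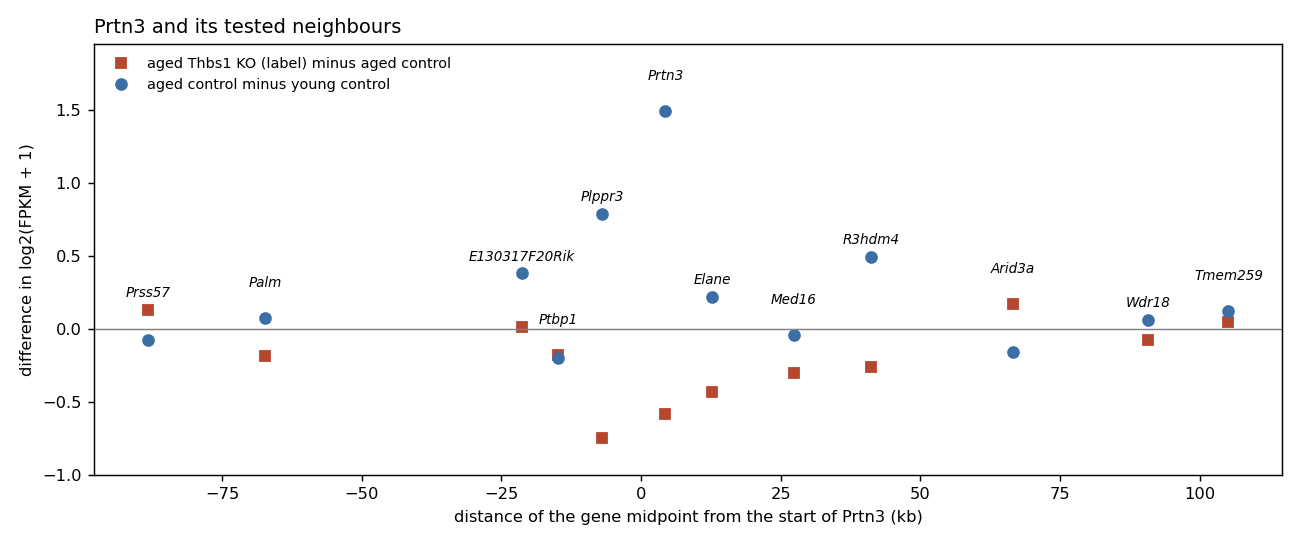
Log2 difference of each tested gene against its distance in kb, from the start of Prtn3 to the midpoint of the gene; squares are libraries labelled aged Thbs1 knockout minus aged controls, circles aged minus young controls. Prtn3 stands at 1.49 in aged against young controls, while its neighbours lie between -0.20 and 0.79.

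Csf3r was by far the more abundant of both receptors. Csf3r (ENSMUSG00000028859, chr4:126024550-126044440), the G-CSF receptor that carries the signal for neutrophil production and stem cell mobilisation, had 42.68, 20.89, 41.32, 28.67 and 17.47 FPKM in the libraries labelled aged Thbs1 knockout, against 82.07, 64.75, 63.51, 56.84 and 35.67 FPKM in aged controls and 34.00, 38.27, 29.54, 38.11 and 39.26 FPKM in young controls. The means were 30.2 ± 11.5, 60.6 ± 16.8 and 35.8 ± 4.06 FPKM (SD, n = 5 each). Aged controls 1 to 4 stood above every other library, and aged control 5 lay within the range of both other groups.

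Relative to aged controls, Csf3r fell by 1.01 (log2) in the libraries labelled aged Thbs1 knockout (SE 0.233, adjusted p = 0.0322, limma; exact p = 0.0238). It was the 1 member of 7 tested that was called, where 1.55% of all genes tested were called (0.361% higher and 1.19% lower). The call held in 10 of 20 other settings. It was lost on leaving out aged control 1, 2 or 3 or knockout-labelled replicate 2, 4 or 5 (adjusted p = 0.0528 to 0.112), and without both replicates 2 and 5 the difference was -0.65 (adjusted p = 0.172). Aged controls were higher than young controls by 0.70 (SE 0.233, adjusted p = 0.101, limma, with exact p = 0.0317), which did not pass. This difference passed in 1 of 19 other settings, without aged control 5, the lowest of its group (0.87, adjusted p = 0.0204, limma). Knockout-labelled libraries and young controls differed by -0.32 (SE 0.233, adjusted p = 0.415, limma).

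Csf1r (ENSMUSG00000024621), the M-CSF receptor of monocytes and macrophages, was hardly detected: 0.12, 0.62, 0.09, 0.16 and 0.18 FPKM in the libraries labelled aged Thbs1 knockout, 0.37, 0.02, 0.02, 0.02 and 0.01 FPKM in aged controls and 0.03, 0.37, 0.14, 0.21 and 0.01 FPKM in young controls. A library held as few as 1 and at most 70 of its reads, and its exact p was at least 0.254 in each comparison. Macrophage markers were low too, with 1 of 8 reaching a mean of 1 FPKM.

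**Figure D3:**
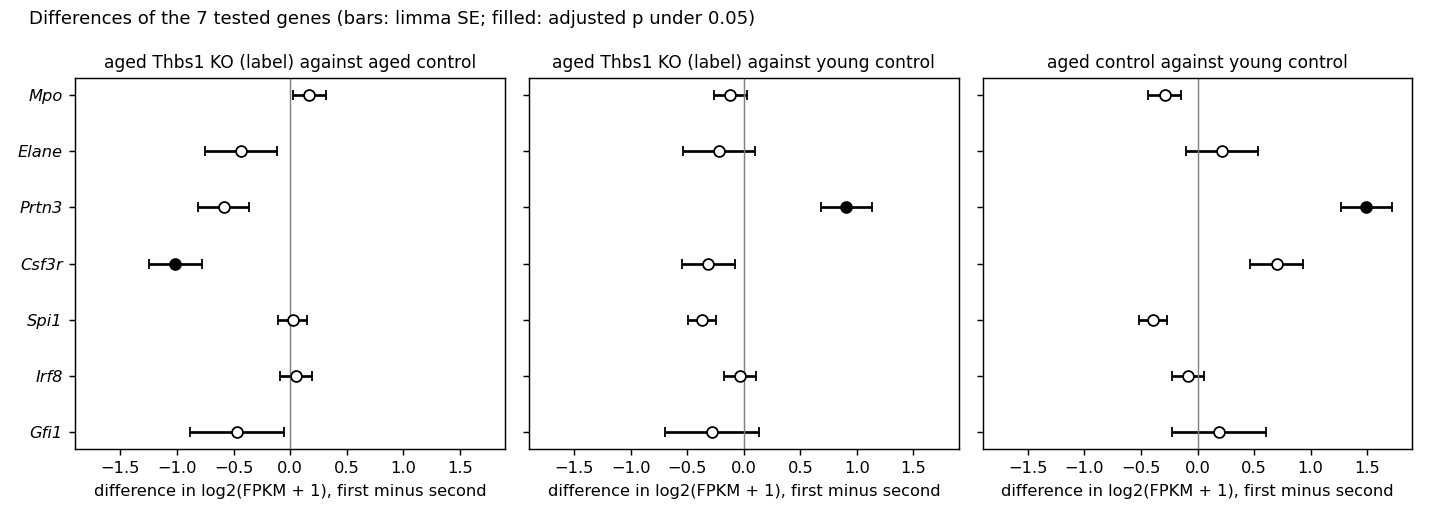
Log2 difference and its standard error (points and bars) of the 7 tested genes in the 3 comparisons; filled points have an adjusted p under 0.05. Prtn3 in aged against young controls, Csf3r in aged Thbs1 knockout-labelled libraries against aged controls and Prtn3 in those libraries against young controls are the calls.

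Among the transcription factors, Spi1 was the most abundant. Spi1 (ENSMUSG00000002111, chr2:91082390-91115756), which encodes PU.1, had 29.18, 37.52, 26.27, 24.22 and 32.07 FPKM in the libraries labelled aged Thbs1 knockout, 29.38, 32.04, 29.69, 30.22 and 24.53 FPKM in aged controls and 35.05, 40.39, 38.99, 36.77 and 41.16 FPKM in young controls. All 5 aged controls lay below all 5 young controls, with a log2 difference of -0.39 (SE 0.125, exact p = 0.00794). The adjusted p of limma was 0.0861, so the difference was not called. It was called in 2 of 19 other settings, with an adjusted p of 0.0493 when sex was a covariate. Such non-overlapping ranges were found for 7.16% of all genes tested (4.57% higher and 2.59% lower). Prtn3 and Spi1 were the 2 members with ranges apart in aged against young controls. Against young controls, the libraries labelled aged Thbs1 knockout differed by -0.37 (adjusted p = 0.127, limma, with exact p = 0.0238) with overlapping ranges. This difference was called in 1 of 20 other settings, without knockout-labelled replicates 2 and 5 (-0.52, adjusted p = 0.028, limma). Prtn3 alone had ranges apart in that comparison, where 4.5% of genes did (2.18% higher and 2.32% lower). Between the libraries labelled aged Thbs1 knockout and aged controls, 0 of the 7 members had ranges apart, where 2.34% of genes did (0.749% higher and 1.6% lower).

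Cebpa (ENSMUSG00000034957, chr7:35119293-35121928) had 1.26 ± 0.646 FPKM in the libraries labelled aged Thbs1 knockout, 0.554 ± 0.543 in aged and 1.04 ± 0.642 in young controls (SD, n = 5 each), with an exact p of 0.0794 between the first 2 groups. Gfi1 (ENSMUSG00000029275, chr5:107716657-107726036), a repressor needed for neutrophils and for stem cell quiescence, had 5.13 ± 4.97, 6.02 ± 2.30 and 5.14 ± 2.27 FPKM, and within the knockout-labelled group it ranged from 1.0 to 13.39 FPKM. Irf8 (ENSMUSG00000041515, chr8:120736358-120756694), which drives monocytes and dendritic cells, had 1.20 ± 0.257, 1.11 ± 0.139 and 1.25 ± 0.287 FPKM. Dendritic cell markers were nearly absent, with 0 of 6 at a mean of 1 FPKM. Gfi1 and Irf8 had an adjusted p of at least 0.663 in all 3 comparisons (limma).

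Over the 7 members tested, the median log2 difference was 0.19 in aged against young controls, -0.43 in knockout-labelled libraries against aged controls and -0.22 in knockout-labelled libraries against young controls, beside -0.02, -0.03 and -0.06 over all genes tested.

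Gfi1 and Cebpa differed between female and male libraries. The library names give 8 female and 7 male libraries, and the sex-linked genes followed them: Xist had 2.5 to 5.81 FPKM in females and 0 to 0.02 in males, while Eif2s3y had 0 to 0.04 in females and 2.12 to 5.72 in males. Gfi1 had 1.0 to 6.31 FPKM (median 3.41) in females and 5.31 to 13.39 FPKM (median 7.35) in males, a log2 difference of -1.09 with group as covariate (SE 0.234, adjusted p = 0.011, limma). It was the 1 of 7 members called, a share near the 12.9% called over all genes tested, so this count does not set the members apart. Cebpa had 0.63 to 1.94 FPKM (median 1.52) in females and 0.08 to 0.70 FPKM (median 0.43) in males, and once genes with a mean of 0.1 FPKM were admitted, where 6.58% of genes were called, its difference was 0.71 (SE 0.123, adjusted p = 0.00646, limma). The exact permutation p was 0.000622 for each of these genes (two-sided, 8 against 7 libraries). Gfi1, higher in males, and Cebpa, higher in females, thus ran in opposite directions. In each group the males carry the lower sample numbers, so sex cannot be told apart from anything that follows those numbers.

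**Figure D4:**
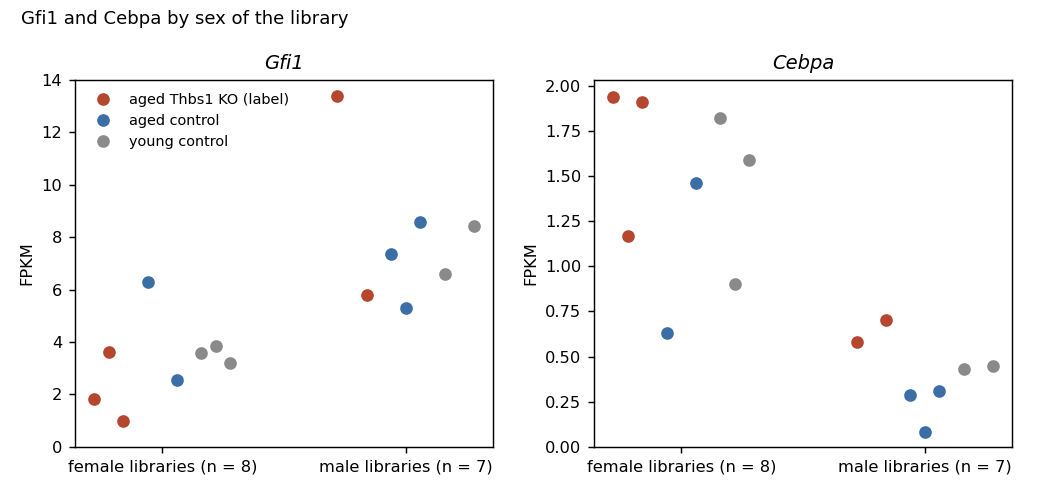
FPKM of Gfi1 and Cebpa in female (left) and male (right) libraries, 1 point per library, coloured by group. Gfi1 females lie at 1.0 to 6.31 and males at 5.31 to 13.39; Cebpa females lie at 0.63 to 1.94 and males at 0.08 to 0.70.

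The age and knockout comparisons gave no call of a sex difference for any member, and for no gene of 11345 in any of the 3 comparisons. The male libraries were young controls 1 and 2, aged controls 1 to 3 and knockout-labelled replicates 1 and 2, and the rest were female. With so few libraries per sex and group, the absence of a call says little. In aged against young controls, Prtn3 differed by 1.03 within females (adjusted p = 0.174) and 1.82 within males (adjusted p = 0.0031, limma). Csf3r in knockout-labelled libraries against aged controls differed by -0.69 within females (adjusted p = 0.854) and -1.19 within males (adjusted p = 0.102, limma). The difference between the sexes itself was not called for either gene (adjusted p of at least 0.587, limma). The smallest unadjusted p of any member was 0.0557 (limma), for Prtn3 in knockout-labelled libraries against aged controls. Prtn3 there differed by -0.09 within females (adjusted p = 0.964) and by -0.96 within males (adjusted p = 0.146, limma).

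Over the 15 libraries, no pair of members passed a test of moving together. Over 21 pairs of the 7 tested members, none had an adjusted p under 0.05 and 1 had an unadjusted p under 0.05, Csf3r with Gfi1 (Pearson r 0.522, permutation p = 0.0467, adjusted p = 0.427; Spearman rho 0.493, permutation p = 0.0639), and r fell to 0.259 without the 2 libraries farthest from the median Csf3r. Prtn3 and Elane had r 0.416 over the 15 libraries and 0.646 after the group means were subtracted, and Prtn3 and Spi1 had r -0.418 and 0.629. The r after subtraction was not tested.

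Outside the set, the genes closest to Prtn3 in pattern over the 15 libraries were Prcp (Pearson r 0.981), Tmem176a (0.966) and Aldh3a1 (0.957), on the log2 scale. Csf3r was followed most closely by Qsox1 (0.945), Ccdc97 (0.941) and Krt80 (0.932). For Spi1 the highest r was with Fam181b (0.929) and for Gfi1 with Ifngr2 (0.882). For Elane, Mpo and Irf8 the highest r was 0.879 (Dnajc17), 0.782 (Akr1c13) and 0.752 (Mthfd2l). These are descriptions, each picked as the best among the genes tested. The members themselves, pseudogenes and genes with clone or model names were left out of the search.

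Other genes of the myeloid program were followed by list, and here only called genes are counted as rising or falling. Of all genes tested, 4.42% were called in aged against young, 1.55% in knockout-labelled against aged and 1.63% in knockout-labelled against young. The median over all genes tested was -0.02, -0.03 and -0.06 in the same order. Whether a list held more calls than these shares was not tested. Of 9 tested genes of granule proteins and their partners (10 listed), 1 rose in aged against young controls and none fell: Cd63, a granule membrane tetraspanin, by 0.71 (adjusted p = 0.0489, limma), with 204 ± 71.3 FPKM in the libraries labelled aged Thbs1 knockout, 229 ± 43.5 in aged and 139 ± 20.8 in young controls. Against young controls, 1 fell in the knockout-labelled libraries, Serpinb1a, an inhibitor of neutrophil serine proteases, by 0.67 (adjusted p = 0.0162). None was called between knockout-labelled libraries and aged controls. Lyz2 of this list, named for its level and not called in any comparison, had a higher mean than Prtn3 in each group. Its means were 424 ± 32.7 FPKM in the libraries labelled aged Thbs1 knockout, 450 ± 30.1 in aged and 430 ± 62.0 in young controls. The median of the 9 was 0.06, -0.09 and -0.01 in aged against young, knockout-labelled against aged and knockout-labelled against young. Of 12 late neutrophil genes 2 were tested and none was called.

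In the cytokine receptor list, 12 of 14 were tested. Flt3, the receptor of lymphoid and early myeloid progenitors, fell in aged against young controls by 1.65 (adjusted p = 0.00043), and had 6.16 ± 3.38 FPKM in the libraries labelled aged Thbs1 knockout, 2.35 ± 0.281 in aged and 9.51 ± 0.948 in young controls. None of the 12 was called in the other comparisons (limma). The median of the 12 was -0.20 in aged against young, -0.21 in knockout-labelled against aged and -0.38 in knockout-labelled against young.

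The genes of signalling downstream of these receptors contained Socs3, the feedback inhibitor that binds the G-CSF receptor. It had 4.69 ± 0.719 FPKM in the libraries labelled aged Thbs1 knockout, 18.6 ± 4.99 in aged and 2.40 ± 0.504 in young controls (SD, n = 5 each). It rose in aged against young controls by 2.49 (adjusted p = 1.6e-07), fell in knockout-labelled libraries against aged controls by 1.75 (adjusted p = 1.79e-05) and was higher in them than in young controls by 0.75 (adjusted p = 0.0413, limma). Stat3, which the same receptor activates, fell in knockout-labelled libraries against aged controls by 0.54 (adjusted p = 0.0403), and Fgr, a Src-family kinase of myeloid cells, rose in aged against young controls by 0.88 (adjusted p = 0.0176). In all, of 15 tested genes in this list, 2 were called higher and none lower in aged against young controls. None was called higher and 2 lower in knockout-labelled libraries against aged controls, and 1 was called higher against young controls. The median of the 15 was -0.19, -0.23 and -0.30 in these comparisons.

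Of 22 tested myeloid transcription factor genes (30 listed), 3 were called higher and 1 lower in aged against young controls, where 4.42% of all genes tested were called. Cebpd, a C/EBP factor induced by cytokines, had 1.5 ± 0.53 FPKM in the libraries labelled aged Thbs1 knockout, 4.45 ± 1.70 in aged and 0.776 ± 0.146 in young controls; it rose in aged against young controls by 1.55 (adjusted p = 0.00029) and was the 1 that fell in knockout-labelled libraries against aged controls, by 1.08 (adjusted p = 0.0169). Cebpb, the C/EBP of emergency granulopoiesis, rose in aged against young controls by 1.03 (adjusted p = 0.0296), and Trib1, an adaptor that directs C/EBP-alpha to degradation, by 0.79 (adjusted p = 0.0335). Irf5, a factor of inflammatory macrophages, fell by 0.57 (adjusted p = 0.0412, limma). The median of the 22 was 0.08, -0.21 and -0.10 in aged against young, knockout-labelled against aged and knockout-labelled against young, and none was called in the last of these.

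Most called genes of the myeloid surface and oxidase list were lower in aged controls. Of 10 tested genes (20 listed), 4 were called lower and 1 higher in aged against young controls, where 4.42% of all genes tested were called. The log2 differences of those that fell were, for Ncf4 and Ncf1, cytosolic subunits of the phagocyte NADPH oxidase, -1.73 (adjusted p = 4.68e-05) and -1.13 (adjusted p = 0.00043), for Ctss, a lysosomal protease, -1.57 (adjusted p = 0.00111), and for Tyrobp, a signalling adaptor, -1.46 (adjusted p = 0.0095, limma). The 1 that rose, Cd14, the lipopolysaccharide co-receptor, did so by 0.89 (adjusted p = 0.0172) and was named after its value was seen. Ncf1 was the 1 called between knockout-labelled libraries and aged controls, higher by 0.98 (adjusted p = 0.00375), with 2.60 ± 0.633 FPKM in the libraries labelled aged Thbs1 knockout, 0.828 ± 0.315 in aged and 2.99 ± 0.598 in young controls. Ncf4 fell against young controls by 1.25 (adjusted p = 0.0042). The median of the 10 was -0.61 in aged against young, 0.24 in knockout-labelled against aged and -0.39 in knockout-labelled against young, beside -0.02, -0.03 and -0.06 over all genes tested.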

How the data were processed

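HSCs were sorted into TRIzol-LS and 2 ng of RNA went into each SMART-Seq v4 library, per the labels' protocols. The authors deposited 1 table of FPKM values (20696 genes, 15 libraries); per the submitters' processing notes FastQC 0.11.5, STAR and edgeR were used with GRCm38 (mm10), with no order, settings, strand or role given. Members, lists and windows were chosen with earlier results of these data known.

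Columns were assigned to groups by sample title and sex by library name. Depth was recovered from the steps of the FPKM values: at least 97.9% of values of genes up to 250 nucleotides were whole reads within 0.1 reads, and 97% in held-out genes up to 500 nucleotides, using GENCODE M21 lengths. Values were analysed as log2(FPKM + 1), which understates changes of low genes, with limma 3.58.1 (R 4.3.3) in 1 fit of 3 groups over genes with a mean of at least 1 FPKM; a gene was called at an adjusted p (Benjamini-Hochberg over all genes tested) under 0.05, two-sided. limma was tested only on simulated data with independent normal noise, without sex differences or label errors. Exact two-sided permutation tests over all splits (Python 3.11.15, numpy 2.4.6) were run for 10 members in 3 comparisons, 30 tests whose smallest possible p is 0.0079. They were also run for the 10 members between female and male libraries. All these exact p-values are unadjusted. Pair correlations used 100000 resamples, with ranks and adjustment from scipy 1.17.1. Named genes were the 10 members, Thbs1, the called genes among the 4 smallest p of each list and the 3 most similar genes of each tested member. Alternatives were another pseudocount, filters, normalizations, sex as covariate, a replicate block, the grouping by description, leaving out libraries, and voom on recovered reads.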

Additional observations from a re-analysis of the deposited data

Results flagged for a closer look

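Of 30 groups of 5 libraries (10 genes in 3 groups), 3 held a library far from the others, with a gap over the group's range above 0.71. For normally distributed values, chance flags about 1 in 20 groups. That rate need not hold for low and skewed FPKM values such as those of Csf1r. Csf1r had 0.62 FPKM in knockout-labelled replicate 2 (gap over range 0.83), the library with the most ribosomal-like RNA, and 0.37 FPKM in aged control 1 (0.972). Prtn3 had 339.02 FPKM in knockout-labelled replicate 5 (0.74). In the same library S100a8 and S100a9 stood highest, at 19.31 and 20.12 FPKM, while the other 4 measured mature neutrophil markers summed to 0.15 FPKM, the lowest of the 15 libraries.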

How the results depend on the processing

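Prtn3 in aged against young controls was called in every setting but the grouping by description, with a range of -0.71 to 1.65. The number of members called in knockout-labelled libraries against young controls was 0 with a pseudocount of 0.1, without the filter, with a filter of 0.1 FPKM, without the intensity trend, with the replicate block and with voom on recovered reads. In knockout-labelled libraries against aged controls it was 0 without the filter and with voom, and 2 with quantile normalization (Prtn3 and Csf3r); 2 members also had an exact p under 0.05 there and, without knockout-labelled 2 and 5 (Elane and Prtn3), 2. In aged against young controls it was 2 with sex as covariate and with voom (Prtn3 and Spi1), and between the sexes 2 without the filter or with that of 0.1 FPKM (Cebpa and Gfi1). The causes of these shifts were not tested. The same sample numbers did not pair the samples (correlations of deviations from -0.455 to 0.527); with the replicate block, 1, 1 and 0 members and 499, 152 and 158 genes were called in aged against young, knockout-labelled against aged and knockout-labelled against young, against 501, 176 and 185 without it.

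Grouping by the descriptions, where all young controls are male and all knockout-labelled libraries female, called 0 members in each comparison, and 0, 0 and 15 genes, with 1 member (Cebpa) at an exact p under 0.05 in aged against young controls. There the differences reversed to 0.092 (Mpo), -0.43 (Elane), -0.71 (Prtn3), -0.68 (Csf3r), 0.14 (Spi1), 0.17 (Irf8) and -0.39 (Gfi1) in aged against young controls. They reversed to -0.23 (Mpo), 0.65 (Prtn3), 0.019 (Csf3r), -0.41 (Spi1) and -0.081 (Irf8) in knockout-labelled against aged, and to -0.059 (Prtn3) and 0.093 (Irf8) in knockout-labelled against young. Of the untested members, Cebpa (0.66), Ctsg (-0.099) and Csf1r (0.066) changed sign in aged against young controls. Ctsg and Csf1r did so too in knockout-labelled against aged (0.079 and -0.14) and in knockout-labelled against young (-0.020 and -0.078). With sex as covariate Gfi1 in aged against young reversed to -0.028, and 429 genes were called in knockout-labelled against young. Without knockout-labelled 2 and 5, Spi1 (-0.13) and Irf8 (-0.067) against aged reversed, as did Csf3r (0.052) and the untested Csf1r (-0.028) against young. The member called was Prtn3 (-0.87, adjusted p = 0.0395) against aged and Spi1 (-0.52, adjusted p = 0.028) against young controls in limma. In that setting 119 genes were called against young controls, and 1 pair of members (Prtn3 and Csf3r) passed.

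Leaving out 1 library gave 302 to 931 genes called in aged against young, 91 to 225 in knockout-labelled against aged and 98 to 668 in knockout-labelled against young; members called ranged from 1 to 2, 0 to 1 and 0 to 1, members with an exact p under 0.05 from 3 to 4, 1 to 3 and 2 to 2, and members called between the sexes from 1 to 2. Some tested members not called crossed 0: in knockout-labelled against aged Spi1 (-0.063 to 0.0901) and Irf8 (-0.0034 to 0.0901), and in knockout-labelled against young Elane (-0.47 to 0.0089), Irf8 (-0.087 to 0.027) and Gfi1 (-0.68 to 0.035). Reads limit Csf1r, Ctsg, Elane and Cebpa, at 1 to 123 reads in a library.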
